A study of Mus musculus with 4 samples.

Results

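Expression of the DNA replication machinery and of deoxynucleotide synthesis was compared between megakaryocytes, the platelet-forming cells of the bone marrow, of old and young mice. The 40 genes were chosen by name, with earlier results of these data known. They are licensing factors, helicase subunits, polymerases, clamp and clamp loader subunits, single-strand binding proteins, lagging-strand enzymes, deoxynucleotide synthesis enzymes, E-type cyclins and Uhrf1. All 40 were present among the 56793 gene rows of the deposited expression table. The series holds 2 old and 2 young libraries of poly(A)-selected RNA from cells isolated from bone marrow by flow cytometry. All 4 libraries carry the genotype label Blc6. Ages, the gate used for sorting and how many animals went into a library are not in the labels. P-values therefore reflect the spread among these 4 libraries alone, and that spread may be technical. The study's title concerns platelet factor 4 and the ageing of blood stem cells, and gives no question on DNA replication.

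Before S phase, the origin recognition complex, Cdc6 and Cdt1 load the ring of Mcm2 to Mcm7 onto DNA. Cyclin E with Cdk2 helps to start replication, when Cdc45 and the GINS complex join the ring to form the active helicase, polymerase alpha with primase lays down primers, and polymerases delta and epsilon extend them on the Pcna clamp. Most of these genes are targets of E2F transcription factors and are used by any dividing cell, and megakaryocytes also use them for endoreplication, in which the nucleus copies its DNA repeatedly without dividing.

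The labelled cell type was checked against marker genes. In the old libraries 12 megakaryocyte markers summed to 949 and 1416 TPM (an abundance that allows for transcript length and adds up to the same total in each library), against 1730 and 2277 TPM in the young ones. The 10 markers of mature neutrophils summed to 101401 and 101886 TPM in old and 117709 and 111314 TPM in young libraries, so transcripts of another cell type were far more abundant than those that define megakaryocytes. Every marker of both lists was above 0 in every library. Immunoglobulin genes took 13.3% and 13.1% of TPM in old and 1.03% and 0.896% in young libraries, which lowers every other gene in the old ones because the total is fixed. TPM keeps no depth, so the sequencing depth is unknown. In such bulk samples, fewer cells of a type and less RNA per cell cannot be told apart, so a lower value below does not say which cells the transcripts came from.

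Replication genes were lower in old megakaryocyte samples across nearly all roles. Of the 40 members 32 fell and 0 rose (limma on log2(TPM + 1), Benjamini-Hochberg adjusted p under 0.05), against 14.7% of all 16073 tested genes called lower and 5.2% called higher. Every member passed the minimum mean of 1 TPM. When only the 11416 genes averaging at least 5 TPM were tested, 35 members fell, against 23.9% of genes called lower. The median log2 change of those 11416 genes was -0.15. In 38 of the 40 members both old libraries lay below both young ones, as in 46.1% of all tested genes, and the exceptions were Gins2 and Pole. The median log2 change of the members was -0.48, against -0.10 over all tested genes. Per member, the old mean was 52.0% to 96.0% of the young mean, with a median of 71.3%. Together the 40 genes summed to 2582 and 2545 TPM in old and 3643 and 3761 TPM in young libraries, and the groups did not overlap.

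The number of calls depended on the scaling and on each of the 4 libraries. With immunoglobulin genes removed and the rest rescaled, 20 members fell and 0 rose, against 3.27% of genes called lower and 8.2% called higher. With median-ratio scaling 23 fell and 0 rose, against 5.59% called lower and 5.92% called higher. The 20 were Ccne1, Ccne2, Cdc6, the 6 ring subunits Mcm2 to Mcm7, Pola1, Prim2, Pcna, Rfc4, Rpa1, Rpa3, Fen1, Rrm1, Rrm2, Tyms and Uhrf1, and all 20 were also called with median-ratio scaling. The members' median was then -0.29 and -0.42, and that of all tested genes 0.07 and -0.05. The distance between those medians was -0.38 as deposited, -0.36 without immunoglobulin genes and -0.38 with median-ratio scaling. Rescaling a library shifts nearly all its genes by a similar log2 amount, so this distance was bound to stay about the same. Leaving out a library gave 19 members lower without old replicate 1, 25 without old replicate 2, 2 without young replicate 1 and 3 without young replicate 2, with 0 higher each time. The share of all tested genes called lower was then 4.21%, 10.2%, 0.622% and 0.715%, in the same order. Only Ccne1 kept its call without each library in turn.

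**Figure D1:**
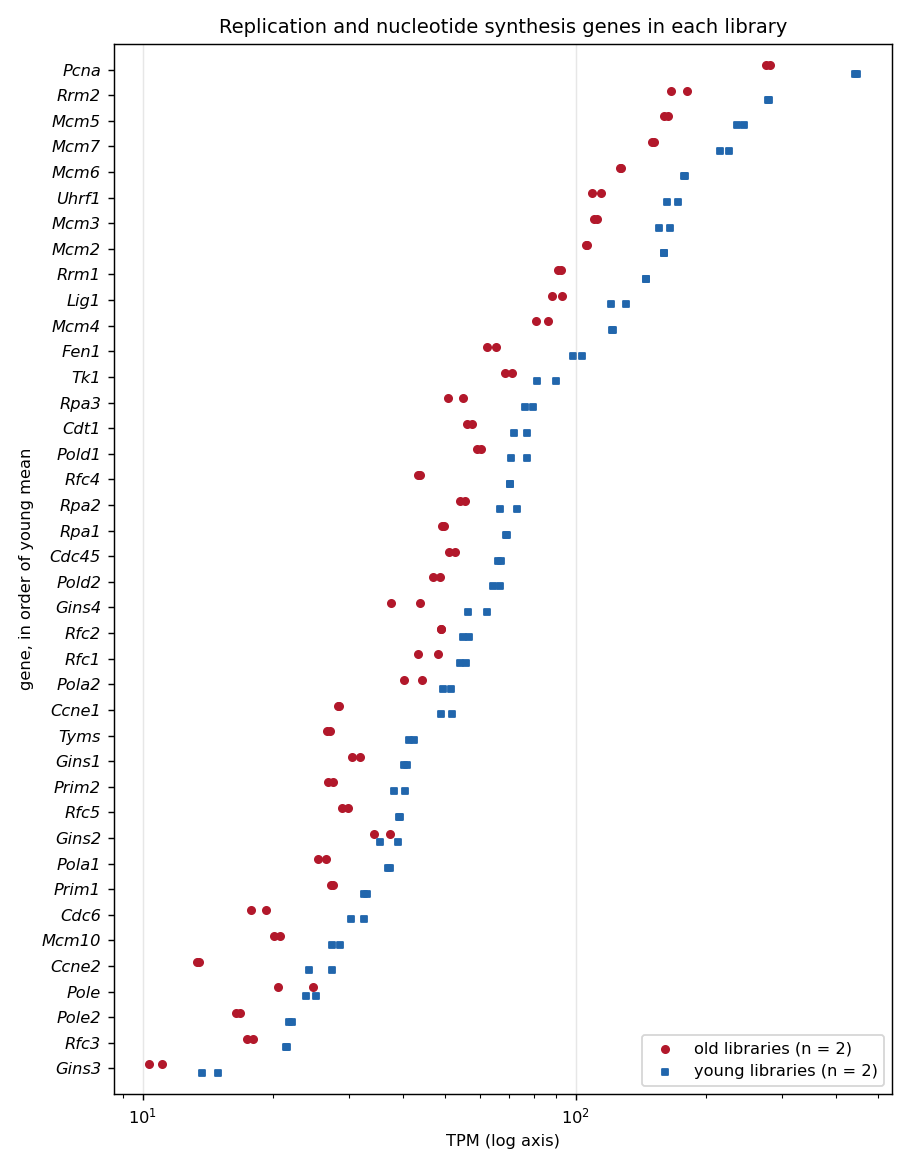
TPM (log axis) of the 40 replication and nucleotide synthesis genes in each of the 2 old libraries (red circles) and 2 young libraries (blue squares), 1 gene per row, ordered by the young mean. Old points lie left of young points in 38 rows, and the points overlap for Gins2 and Pole.

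**Figure D2:**
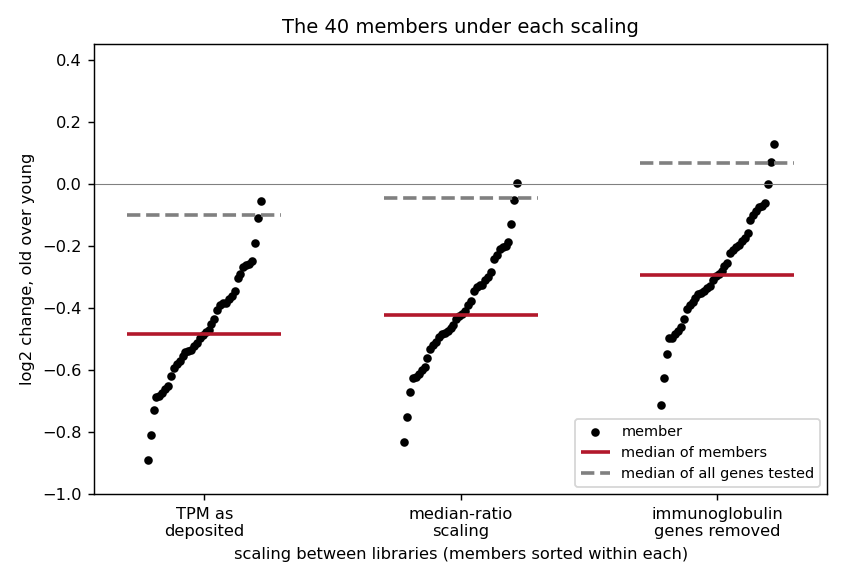
Log2 change, old over young, of the 40 members under 3 scalings between libraries, with the members' median (red) and the median of all genes tested (dashed). Both medians move up together, and 2 members lie above 0 when immunoglobulin genes are removed.

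Cyclin E transcripts showed the lowest ratio of old to young. Ccne2, 1 of the E-type cyclins that activate Cdk2 at the G1/S boundary, was at 13.3 and 13.5 TPM in old and 24.2 and 27.3 TPM in young libraries, and its log2 change was -0.89 (SE 0.09, limma adjusted p = 0.0120). Ccne1 was at 28.4 and 28.2 TPM in old and 49.0 and 51.8 TPM in young libraries, with a log2 change of -0.81 (SE 0.07, adjusted p = 0.00850). Both old libraries were close together and well below both young ones for each cyclin. The adjusted p of Ccne1 was at most 0.0463 over the other settings, and that of Ccne2 at most 0.0510. Exons of Ccne2 overlap those of Ints8 on the other strand. Ints8 was at 20.7 and 18.9 TPM in old and 28.1 and 27.5 TPM in young libraries. Such overlaps were present for 11 members, the others being Cdc45, Fen1, Gins2, Lig1, Mcm7, Pole, Rfc2, Rfc4, Rfc5 and Tk1. The kit was strand-specific, but the sources used here do not say whether counting used strand, and without it the reads of such a pair cannot be told apart.

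Both origin licensing factors fell, by different amounts. Cdc6, the ATPase that recruits the helicase ring to origins, was at 19.2 and 17.8 TPM in old and 30.2 and 32.4 TPM in young libraries, a log2 change of -0.73 (SE 0.08, limma adjusted p = 0.0145). Its partner Cdt1 was at 57.7 and 56.0 TPM in old and 72.1 and 77.1 TPM in young libraries, a log2 change of -0.39 (SE 0.07, adjusted p = 0.0251). The groups did not overlap for either gene. The call of Cdt1 was lost with immunoglobulin genes removed (adjusted p = 0.106, and 0.0195 to 0.173 over all settings), and whether the 2 genes differ in their change was not tested.

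The 6 subunits of the Mcm2 to Mcm7 ring fell nearly in parallel. Their log2 changes lay between -0.59 for Mcm2 and -0.49 for Mcm6, and all 6 were also called lower under the other scalings. Mcm2 was at 105.5 and 106.0 TPM in old and 159.9 and 160.2 TPM in young libraries (SE 0.05, limma adjusted p = 0.00962). Mcm5, the most abundant ring subunit in both groups, was at 160.0 and 163 TPM in old and 236 and 245 TPM in young libraries. For Mcm7 the values were 150.2 and 151 TPM in old and 215 and 225 TPM in young libraries, and its exons overlap those of Ap4m1 and Cops6 on the other strand. Mcm6 was at 126 and 127 TPM in old and 178 and 178 TPM in young libraries, and Mcm3 at 110.1 and 112 TPM in old and 155 and 165 TPM in young ones. Mcm4, the least abundant of the 6, was at 86.3 and 80.9 TPM in old and 121 and 122 TPM in young libraries. The old mean was thus 66.1% to 71.2% of the young mean for each subunit. Summed over the ring, the level was 739 and 741 TPM in old and 1066 and 1096 TPM in young libraries.

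The factors that turn the ring into an active helicase were less uniform. Cdc45 fell, at 51.0 and 52.5 TPM in old and 66.1 and 67.4 TPM in young libraries (log2 change -0.36, SE 0.06, limma adjusted p = 0.0246), as did Mcm10, which helps to activate the helicase, with 20.7 and 20.1 TPM in old and 27.4 and 28.6 TPM in young libraries. With immunoglobulin genes removed neither Cdc45 nor Mcm10 kept its call, and with median-ratio scaling only Mcm10 did. Of the 4 GINS subunits, which sit together in 1 complex, 3 fell, beside 14.7% of all tested genes called lower. Gins4 was at 37.5 and 43.8 TPM in old and 56.5 and 62.3 TPM in young libraries, Gins1 at 31.7 and 30.4 TPM in old and 40.7 and 40.2 TPM in young ones. Gins3, the least abundant of all 40 members, was at 11.0 and 10.3 TPM in old and 14.9 and 13.7 TPM in young libraries (adjusted p = 0.0481). Gins2 was at 37.2 and 34.2 TPM in old and 35.4 and 38.9 TPM in young libraries, overlapping values with an adjusted p of 0.649. On the log2 scale Gins2 differed by -0.06 as deposited, by 0.003 under median-ratio scaling and by 0.13 once immunoglobulin genes were left out. None of the GINS calls held under either scaling, and exons of Gins2 overlap those of Gse1 on the other strand. The difference between Gins2 and its partners was not tested.

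Of the 8 genes of the polymerases and primase 5 fell, beside 14.7% of all tested genes called lower. Pola1, the catalytic subunit of polymerase alpha, was at 26.5 and 25.4 TPM in old and 36.8 and 37.2 TPM in young libraries (log2 change -0.50, SE 0.07, limma adjusted p = 0.0191). Prim2, the large primase subunit, was at 26.8 and 27.5 TPM in old and 38.1 and 40.3 TPM in young libraries, and with Pola1 it kept its call under the other scalings. The remaining subunits of that complex, Pola2 with 44.1 and 40.1 TPM in old and 49.4 and 51.6 TPM in young libraries and the catalytic primase subunit Prim1 with 27.6 and 27.1 TPM in old and 32.4 and 32.9 TPM in young ones, did not pass (adjusted p = 0.0693 and 0.0578). The catalytic and the accessory subunit of polymerase delta, Pold1 and Pold2, both fell. Pold1 was at 60.4 and 59.0 TPM in old and 71.0 and 77.0 TPM in young libraries, and Pold2 at 46.7 and 48.6 TPM in old and 66.7 and 64.3 TPM in young ones. For polymerase epsilon, the catalytic subunit gene Pole was at 24.7 and 20.6 TPM in old and 23.8 and 25.1 TPM in young libraries, overlapping values with an adjusted p of 0.491. On the log2 scale Pole differed by -0.11 as deposited and by 0.07 once immunoglobulin genes were left out. Exons of Pole overlap those of the antisense gene Gm15792, at 10.4 and 8.55 TPM in old and 8.04 and 9.70 TPM in young libraries. Pole2, the partner of Pole, fell, with 16.8 and 16.4 TPM in old and 21.8 and 22.2 TPM in young libraries (adjusted p = 0.0309). The calls of Pold1, Pold2 and Pole2 were lost with immunoglobulin genes removed and with median-ratio scaling. Whether Pole differs from Pole2 was not tested.

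Pcna, the sliding clamp and the most abundant of the 40 transcripts in both groups, was at 281 and 275 TPM in old and 441 and 446 TPM in young libraries, or 278 ± 4.68 and 444 ± 3.70 TPM (SD, n = 2 each). Its log2 change was -0.67 (SE 0.05, limma adjusted p = 0.00783), and 0.0102 was its adjusted p with immunoglobulin genes removed, within 0.00615 to 0.0551 over all settings. A pseudogene, Pcna-ps2, that could share reads with it was at 2.29 and 3.46 TPM in old and 5.13 and 4.37 TPM in young libraries. Among the 5 subunits of replication factor C, which opens and loads the clamp, Rfc4 and Rfc5 fell. Rfc4 was at 43.1 and 43.7 TPM in old and 70.4 and 70.4 TPM in young libraries (log2 change -0.68, SE 0.06, adjusted p = 0.00881), and its exons overlap those of Eif4a2 on the other strand, which was at 215 and 171 TPM in old and 134 and 148 TPM in young libraries. Rfc5 was at 28.8 and 29.8 TPM in old and 39.2 and 39.1 TPM in young libraries. Its call was lost with immunoglobulin genes removed and with median-ratio scaling. Rfc1, the largest subunit, was at 48.2 and 43.3 TPM in old and 54.1 and 55.9 TPM in young libraries, Rfc2 at 49.0 and 48.7 TPM in old and 54.99 and 56.7 TPM in young ones, and Rfc3 at 18.0 and 17.4 TPM in old and 21.4 and 21.6 TPM in young ones. Old values were below young ones for these 3 as well, but their adjusted p was 0.0621 to 0.0820.

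All 3 subunits of replication protein A, which coats single-stranded DNA, fell. Rpa3 was at 50.6 and 54.9 TPM in old and 76.3 and 79.6 TPM in young libraries (log2 change -0.55, SE 0.07, limma adjusted p = 0.0170). Rpa1, the main DNA-binding subunit, was at 49.1 and 49.5 TPM in old and 68.9 and 69.3 TPM in young libraries (log2 change -0.48), and Rpa2 at 54.2 and 55.5 TPM in old and 66.9 and 73.0 TPM in young ones (log2 change -0.34). Rpa1 and Rpa3 were also called lower with immunoglobulin genes removed, and Rpa2 was not (adjusted p = 0.185, and 0.0263 to 0.229 over all settings).

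Both enzymes that finish Okazaki fragments fell. Fen1, the flap endonuclease, was at 62.3 and 65.6 TPM in old and 98.8 and 103 TPM in young libraries, a log2 change of -0.65 (SE 0.06, limma adjusted p = 0.0108). Exons of Fen1 overlap those of Tmem258 and of the antisense gene Gm10143, and Gm10143 was listed at 43.4 and 45.3 TPM in old and 67.7 and 70.9 TPM in young libraries. Lig1, the ligase that seals the fragments, was at 92.7 and 87.9 TPM in old and 121 and 130.3 TPM in young libraries (log2 change -0.47, SE 0.07, adjusted p = 0.0207). With immunoglobulin genes removed the adjusted p of Lig1 was 0.0522, within 0.0146 to 0.124 over all settings.

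Of the 4 members of deoxynucleotide synthesis, Rrm1, Rrm2 and Tyms fell, beside 14.7% of all tested genes called lower. Rrm2, the S-phase subunit of ribonucleotide reductase, was at 181 and 166 TPM in old and 278 and 279.9 TPM in young libraries (log2 change -0.69, SE 0.06, limma adjusted p = 0.0107). Rrm1, the large subunit of the same enzyme, was at 92.4 and 90.9 TPM in old and 146 and 145 TPM in young libraries (log2 change -0.66, SE 0.05, adjusted p = 0.00800). Tyms, which makes thymidylate, was at 26.7 and 27.0 TPM in old and 41.2 and 42.4 TPM in young libraries (log2 change -0.62, SE 0.06, adjusted p = 0.0124). All 3 remained lower under each of the other scalings. The salvage enzyme Tk1, thymidine kinase, was at 71.2 and 68.6 TPM in old and 81.4 and 90.0 TPM in young libraries, without overlap, and did not pass (log2 change -0.29, adjusted p = 0.0513). Whether Tk1 differs in its change from the other 3 was not tested. Rrm2b, the reductase subunit that is not tied to S phase, is not among the 40 genes and was at 11.1 and 8.74 TPM in old and 10.7 and 11.7 TPM in young libraries (adjusted p = 0.417). Uhrf1, which guides the maintenance DNA methyltransferase to newly copied DNA, was at 114 and 109 TPM in old and 162 and 172 TPM in young libraries (log2 change -0.58, SE 0.06, adjusted p = 0.0130).

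**Figure D3:**
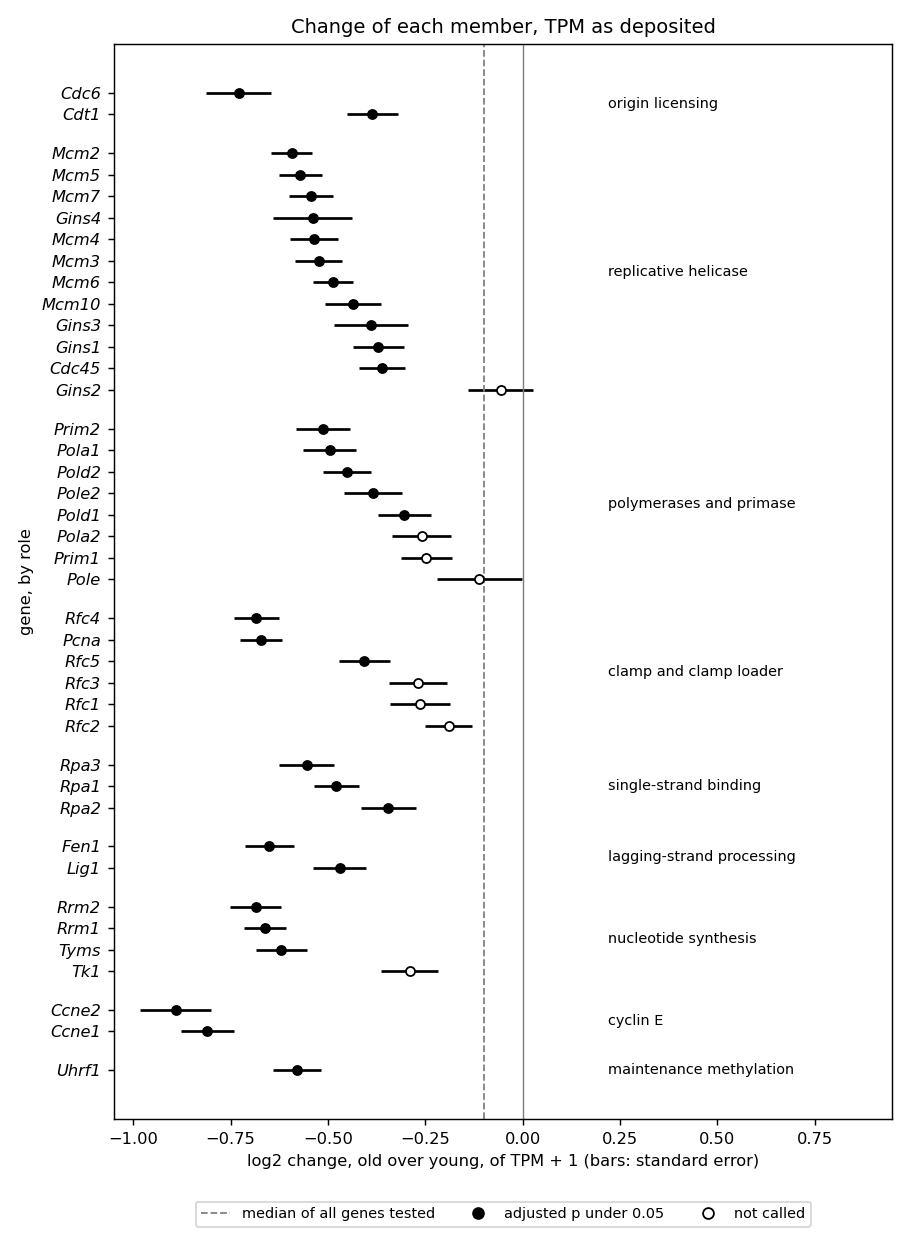
Log2 change of TPM + 1, old over young, with its standard error from limma, for the 40 members grouped by role (filled, adjusted p under 0.05; open, not called). The dashed line is the median of all genes tested, at -0.10. The E-type cyclins lie farthest left and Gins2 farthest right.

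Libraries of a group differed little for most members, but for Gins2 in both groups and for Pole in old samples the SD was larger than the difference between the group means. The SD was at most 13.1% of the mean in old and 8.64% in young samples, with a median of 2.11% in old and 2.74% in young samples. Old replicate 1 and old replicate 2 differed most for Pole and Gins4. Across the 40 genes the change correlated weakly with the level (Pearson r = -0.297 over 40 genes, which share the same libraries), and the 11 most abundant members had the same order in both groups, from Pcna and Rrm2 to Mcm4.

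Another 90 genes of replication and nucleotide metabolism, in 6 lists by role, were examined for comparison. Of these 88 were tested, 39 fell and 0 rose, with a median log2 change of -0.32, beside 14.7% of all tested genes called lower. Chromatin assembly at the fork was the list with the greatest share of calls, 6 of 7, and Asf1b, a histone chaperone, was at 78.7 TPM in old and 123 TPM in young samples (limma adjusted p = 0.0102). Slbp, which binds histone mRNA, and the maintenance methyltransferase Dnmt1 fell as well, with log2 changes of -0.57 and -0.36. In deoxynucleotide supply 6 of 14 tested genes fell, among them Dut, which removes dUTP, at 65.9 TPM in old and 98.7 TPM in young samples, and the folate enzymes Mthfd1 and Mthfd2, with log2 changes of -0.54 and -0.61. Samhd1, which degrades deoxynucleotides, was at 432 and 388 TPM in old and 380 and 392 TPM in young libraries, and mitochondrial Tk2 at 42.5 and 38.7 TPM in old and 36.0 and 38.6 TPM in young ones, with adjusted p of 0.432 and 0.335. Rrm2b, Samhd1 and Tk2 were picked for mention with their values in view.

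In the list of origin recognition and firing 5 of 19 fell, among them Gmnn, the inhibitor of Cdt1, with a log2 change of -0.50, Orc6 with -0.46 and Orc1 with -0.56. Among fork and polymerase accessory genes 7 of 18 fell, including Pole4, a small subunit of polymerase epsilon, with -0.51, Top2a, which untangles copied DNA, with -0.50, and the fork protection factor Tipin with -0.41. In purine and pyrimidine synthesis 9 of 17 fell, including Paics, Gart and Prps2, with -0.42, -0.41 and -0.41, and in this list 0 genes were lower with immunoglobulin genes removed and 1 with median-ratio scaling. Of 13 E2F and pocket protein genes 6 fell, including E2f4, at 105 TPM in old and 148 TPM in young samples, Rbl1 and the repressor E2f8. With immunoglobulin genes removed 8 of the 88 genes were lower, namely Gmnn, Pole4, Asf1b, Slbp, Dut, Mthfd1, Mthfd2 and E2f4, beside 3.27% of all genes, and with median-ratio scaling 25 were, beside 5.59%. Without young replicate 1 there were 0 lower, without young replicate 2 there was 1, without old replicate 1 there were 16 and without old replicate 2 there were 25, beside the shares of all genes given above for each library.

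Markers of erythroid cells and of B cell precursors, and mitosis genes, were also mostly lower in old samples, and those of neutrophil precursors were mixed. The 16 erythroid markers in the table all fell, and summed to 3102 and 3617 TPM in old and 10170 and 10122 TPM in young libraries, led by the globin genes Hbb-bs, Hba-a1 and Hbb-bt. Of 12 markers of B cell precursors 10 fell, and they summed to 281 and 265 TPM in old and 505 and 454 TPM in young libraries, with Cd79b, Cd79a and Vpreb3 the most abundant. Of 12 neutrophil precursor markers Camp, Chil3, Cebpe and Fcnb fell and 8 were not called, among them Ngp and Ltf, which with Camp were the most abundant (adjusted p = 0.0809 for Ngp and 0.125 for Ltf). In that list Mpo and Gfi1 had both old libraries above both young ones, with log2 changes of 0.28 and 0.18, and 4 genes overlapped. With immunoglobulin genes removed 2 of the 12 were lower and 2, Mpo and Gfi1, were higher, with a median of 0.02. The 12 summed to 27698 and 26639 TPM in old and 33745 and 34149 TPM in young libraries. Of 25 mitosis genes 18 fell, with a median log2 change of -0.42 and with Mki67 (not called, adjusted p = 0.0591), Ccnb2 and Ccna2 the most abundant, and 11 fell with immunoglobulin genes removed. The part of any of these cells in the lower replication transcripts was not tested. None of these markers was at 0 in all libraries.

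For the other markers, 11 of 12 plasma cell genes rose, led by Igkc, Jchain and Xbp1, and summed to 40640 and 41089 TPM in old and 2866 and 2639 TPM in young libraries. Among 12 markers of stem and progenitor cells, Kit, Ly6a, Procr and Mecom rose and Cd48 fell. With immunoglobulin genes removed 7 of these 12 were higher and 1 was lower, beside 8.2% of all genes called higher. Of 12 macrophage and monocyte markers 9 fell as deposited and 4 under either other scaling. The shares of all genes called lower were 14.7% as deposited, 3.27% with immunoglobulin genes removed and 5.59% with median-ratio scaling. Of the 11 megakaryocyte markers tested 2 fell as deposited, Itgb3 and Gp5, and 0 under either other scaling. In 8 of these 11 both old libraries lay below both young ones, beside 46.1% of all tested genes. The median log2 change of the 11 was -0.76. The most abundant megakaryocyte marker, Pf4, was at 433 and 598 TPM in old and 746 and 832 TPM in young libraries (limma adjusted p = 0.0545). The authors' deposited table of changed genes lists Pf4, Itgb3, Gp1ba, Gp5, Gp9 and Treml1 as lower, and not the other tested megakaryocyte markers. Of 10 T and NK cell markers 1 fell, of 8 tested endothelial and stromal markers 1 fell, and of 10 mature neutrophil markers 2 rose. Of those 10 mature neutrophil markers 5 were higher and 0 lower with immunoglobulin genes removed.

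**Figure D4:**
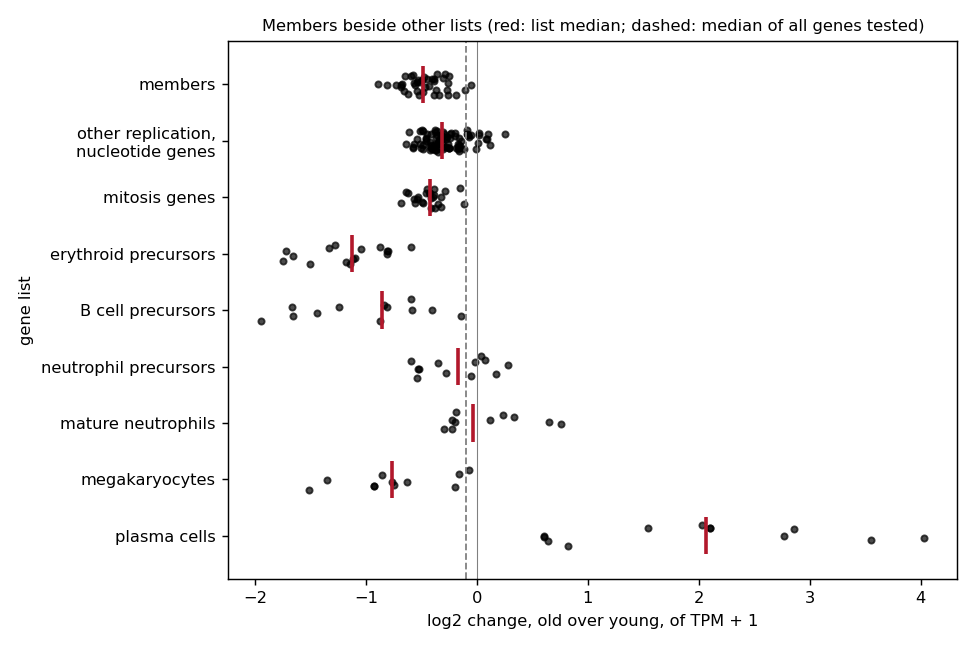
Log2 change of TPM + 1, old over young, of each tested gene (points) in the 40 members and in 8 other lists, with the list median (red) and the median of all genes tested (dashed). The medians of erythroid (-1.13), B cell precursor (-0.86) and megakaryocyte (-0.76) markers lie farther below 0 than that of the members (-0.48), and plasma cell markers lie above 0.

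**Figure D5:**
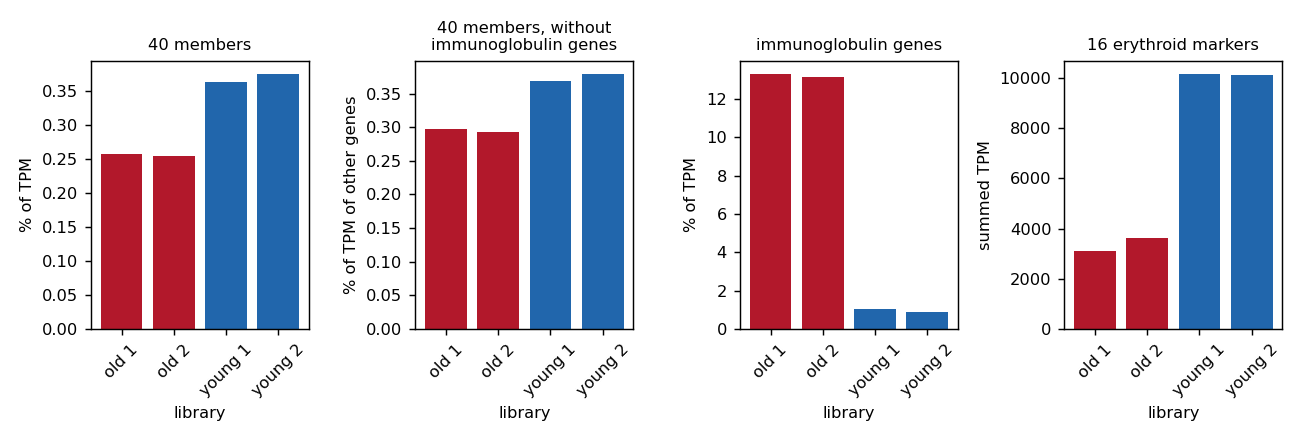
Share of TPM of the 40 members, the same as a share of TPM of all genes other than immunoglobulins, the share of immunoglobulin genes, and the summed TPM of 16 erythroid markers, in each old (red) and young (blue) library. The members took 0.258% and 0.254% of TPM in old and 0.364% and 0.376% in young libraries, and 0.298% and 0.293% against 0.368% and 0.379% when immunoglobulin genes were left out.

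The authors' deposited table of changed genes for old against young holds 24 of the 40 members, all with a log2 fold change below 0, against 4.51% of the genes tested here that it lists with a negative fold. All 24 were among the 32 genes called here. In the authors' deposited table the folds ranged from -0.72 for Ccne2 to -0.30 for Pold2, and Rrm1 had a log2 fold change of -0.54 (SE 0.12) with an adjusted p of 1.73e-06. The authors' deposited table does not list 8 of the genes called here, namely Cdt1, Mcm10, Cdc45, Gins1, Gins3, Pold1, Pole2 and Rpa2. In the authors' deposited enrichment table for genes lower in old, the term Synthesis of DNA held 34 of its 117 genes, 19 of them members, with a log10 q-value of -19.0. The term DNA strand elongation there held 10 of its 22 genes, all 10 of them members, with a log10 q-value of -6.98. These tables belong to the same study and are no independent evidence.

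E2F factors are known to act on many of the members, so the members' promoters were searched for E2F-type letters. RefSeq windows (build GRCm38.p6, from 250 bases before to 50 after the annotated start) were matched by symbol for 32 of the 40 members, with 38 windows in all. The strings searched on both strands were TTTGGCGC, TTTCGCGC, TTTCCCGC and TTTGCCGC, whose matches can overlap. At least 1 match was present in 34.2% of the 38 member windows, against 2.26% of all 32851 windows and 3.63% of the 8242 windows of 55 to 65% GC, close to the members' median of 59.2%. By gene, 13 of 32 members had a match, 12 of 27 among those called lower and 1 of 5, Rfc3, among those without a call. Windows of the other replication and nucleotide genes held a match in 22.1% of 95, and those of mitosis genes in 4.55% of 22. The letters CCAAT were in 57.9% of member windows and in 37.4% of all windows. A match is a description of letters and not a binding site. The search says nothing on the difference between old and young samples, and a part of E2F factors in it was not tested.

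Stretches of the 8 members with a match wholly before the start are shown because they carry these letters. Each runs 5′ to 3′ along the gene, and capitals mark the match on either strand.
Cdc6: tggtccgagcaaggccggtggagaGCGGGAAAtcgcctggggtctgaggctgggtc
Mcm5: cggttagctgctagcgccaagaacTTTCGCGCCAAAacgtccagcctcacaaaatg
Mcm6: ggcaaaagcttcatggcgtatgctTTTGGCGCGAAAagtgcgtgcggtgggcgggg
Mcm7: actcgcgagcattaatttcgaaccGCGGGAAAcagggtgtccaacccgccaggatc
Gins3: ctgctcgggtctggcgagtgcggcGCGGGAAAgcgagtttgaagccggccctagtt
Pola1: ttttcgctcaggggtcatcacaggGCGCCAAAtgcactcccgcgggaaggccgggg
Uhrf1: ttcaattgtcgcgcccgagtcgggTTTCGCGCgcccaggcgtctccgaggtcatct
Rfc3: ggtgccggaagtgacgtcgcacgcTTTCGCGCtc

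In GRCm38.p6 the Cdc6 stretch is chr11:98907989-98908044 on the plus strand, with the match 138 bases before the start. The Mcm5 stretch is chr8:75109332-75109387 on the plus strand and the Mcm6 stretch chr1:128359784-128359839 on the minus strand, and each holds 2 overlapping matches. The Mcm7 stretch is chr5:138172017-138172072 on the minus strand, and the Gins3 stretch is chr8:95633494-95633549 on the plus strand. The Pola1 stretch is chrX:93632262-93632317 on the minus strand, and the Uhrf1 stretch, before the second of its 2 annotated starts, is chr17:56304104-56304159 on the plus strand. The Rfc3 stretch is chr5:151651209-151651242 on the minus strand and ends at the start. Of these 8 genes 7 fell in old samples, and Rfc3 did not pass (limma adjusted p = 0.0621). That share is near the members' own, 32 of 40, beside 14.7% of all tested genes called lower. The call of Gins3 was lost with immunoglobulin genes removed (limma adjusted p = 0.199) and with median-ratio scaling (limma adjusted p = 0.0766).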

How the data were processed

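Poly(A)-selected, strand-specific RNA-seq libraries of sorted bone marrow megakaryocytes, 2 from old and 2 from young mice, were analysed. Tools named in the submitters' processing notes are STAR, TopHat, Trim Galore and DESeq2, and the builds named are mm9 and GRCm39, without roles. TPM values of all genes were deposited by the authors, and every library totals 1000000. Changed genes have, in the authors' deposited table, log2 fold changes, standard errors, p-values, adjusted p-values and an average normalized signal. The authors' deposited enrichment table gives log10 p-values and q-values. A further 4 columns of values per library, beside the changed genes, were not used.

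The 16073 genes averaging 1 TPM or more were kept, values were transformed to log2(TPM + 1), and old was compared with young by limma 3.58.1 in R 4.3.3 with trended moderated variances, two-sided, with Benjamini-Hochberg adjustment over all genes and a threshold of 0.05. This scale makes the folds of low genes too small. TPM carries no depth, so no counting interval is given. The script was tested on simulated data. No list was tested as a set. Members and lists were chosen with earlier results of these data known. Of the other replication genes, up to 3 per list with the smallest p were named, and of the markers up to 3 with the highest mean. Of 90 other genes 1 was matched by an older symbol in RefSeq. Exon overlaps came from GENCODE M21, which is of another build than GRCm39, and were used for names only. Alternatives were other pseudocounts, filters, scalings, variance models, a stricter threshold, the replicate number as a block and each library left out. Figures were drawn with matplotlib 3.10.9.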

Additional observations from a re-analysis of the deposited data

How the results depend on the processing

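Of the 15 alternatives, the crossed pairing was chosen after seeing the data. As deposited 3204 genes were called, 32 members and 39 of the other replication and nucleotide genes lower, with 0 of either list higher under any alternative, and the median log2 change of the members was -0.48. With immunoglobulin genes removed the values were 1819 genes, 20 members, 8 other genes and a median of -0.29, and with haemoglobin and mitochondrial genes removed too they were 1783, 20, 10 and -0.30. Median-ratio scaling gave 1849 genes, 23 members, 25 other genes and a median of -0.42. With no filter on low values 130 genes, 5 members and 2 other genes were called, without the mean-variance trend 572, 11 and 4, and at an adjusted p of 0.01 157, 5 and 0. A pseudocount of 5 gave a median of -0.45. A minimum mean of 5 TPM gave 3346 genes, 35 members and 47 other genes. Leaving out each library gave 359 to 2325 genes, 2 to 25 members, 0 to 25 other genes and medians of -0.50 to -0.47, and with 1 library left in a group its spread is taken from the other group. The labels' replicate numbers mark no shared animal or day, and same-numbered deviations correlated at -0.15 across genes. The replicate block gave 1252 genes, 23 members and 13 other genes, and the crossed pairing 4649, 37 and 52. Among single members, 8 of 600 values changed sign, all of Gins2 or Pole. Gins2 was at 0.129 and 0.120 after both removals, 0.00295 with median-ratio scaling and -0.124 to 0.0105 with a library left out. Pole was at 0.0715 and 0.0622 after both removals and at -0.240 to 0.0167 with a library left out. Where a call was lost, the cause was not tested. Depth is unknown, so how it limits low members such as Gins3 cannot be given.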
